A study of Homo sapiens with 8 samples.

Results

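The 9 genes described here are transcription factors and surface markers of lung and foregut epithelium: NKX2-1, FOXA1, FOXA2, GATA6, SOX2 and SOX9, and the surface proteins MUC1, EPCAM and CEACAM6. They were chosen by name, as the rows of the deposited table that carry these symbols, and they are 9 of the 52576 genes in it. NKX2-1 and FOXA1 lie on chromosome 14, and the others are on chromosomes 20 (FOXA2), 18 (GATA6), 3 (SOX2), 17 (SOX9), 1 (MUC1), 2 (EPCAM) and 19 (CEACAM6). RNA was sequenced in 8 libraries of NCI-H2009, a human cell line established from a lung adenocarcinoma. Every library came from cells given dCas9-KRAB, which couples a cutting-deficient Cas9 to a KRAB repressor domain and is steered to a site by a guide RNA. The groups were e3 guide 1 and e3 guide 2, which are different guides to 1 enhancer called e3, a non-targeting guide, designed to match no human sequence, and no guide, with 2 libraries in each group. The e3 guides together form the 4 e3 libraries, and the non-targeting and no-guide groups together form the 4 controls. The cells are 1 cell line, and the labels do not state if replicate libraries stem from separate cultures. P-values thus reflect only the spread among these libraries, and that between replicates may be technical. Where the e3 guides or the controls were pooled into 1 group, the spread also held the differences between the groups pooled.

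NKX2-1 is the homeodomain factor that specifies lung from the foregut endoderm and that pathologists use as a marker of lung adenocarcinoma. FOXA1 and FOXA2 are forkhead factors that open chromatin in endoderm, and GATA6 is a zinc finger factor of endoderm and of the developing lung. SOX2 marks the proximal airway and SOX9 the distal tip of the branching lung, while EPCAM, MUC1 and CEACAM6 are carried on the surface of many epithelial cells and carcinomas.

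Values are RPKM, reads scaled to gene length and sequencing depth, so that levels may be compared between genes. Inferred depths ran from 3811246 to 5657763 reads per library. MYC, the gene for which the enhancer is studied, stood at 42.4 and 43.4 RPKM with e3 guide 1 and at 36.3 and 36.2 RPKM with e3 guide 2, against 88.9 and 90.1 RPKM in the non-targeting libraries and 74.6 and 72.7 RPKM in the no-guide libraries. The no-guide libraries stood apart from the other 6 on the first principal component, which held 38.9% of the variance. For each member, changes in comparisons that include them are therefore given beside the change against the non-targeting guide alone.

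No member was absent. Absent was taken as under 0.1 RPKM in every library, and all 9 averaged 1 RPKM or more, the level required for testing. EPCAM was by far the most abundant, at 236.1 ± 16.8 RPKM (SD, n = 8), and ranked at the 98.6 percentile of the 13979 genes tested. NKX2-1 followed at 30.8 ± 7.76 RPKM, SOX9 at 29.9 ± 4.15 RPKM, CEACAM6 at 26.3 ± 16.5 RPKM, MUC1 at 23.2 ± 4.88 RPKM and FOXA1 at 17.2 ± 1.84 RPKM (SD, n = 8 each). SOX2 averaged 8.18 ± 6.44 RPKM, GATA6 5.45 ± 1.32 RPKM and FOXA2 1.12 ± 1.40 RPKM (SD, n = 8 each). The ranges of neighbours in this order overlapped, except that the lowest EPCAM value, 211.0 RPKM, lay above every value of every other member. FOXA2 was the closest to absence, being listed at 0 in 2 of the 4 e3 libraries.

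**Figure D1:**
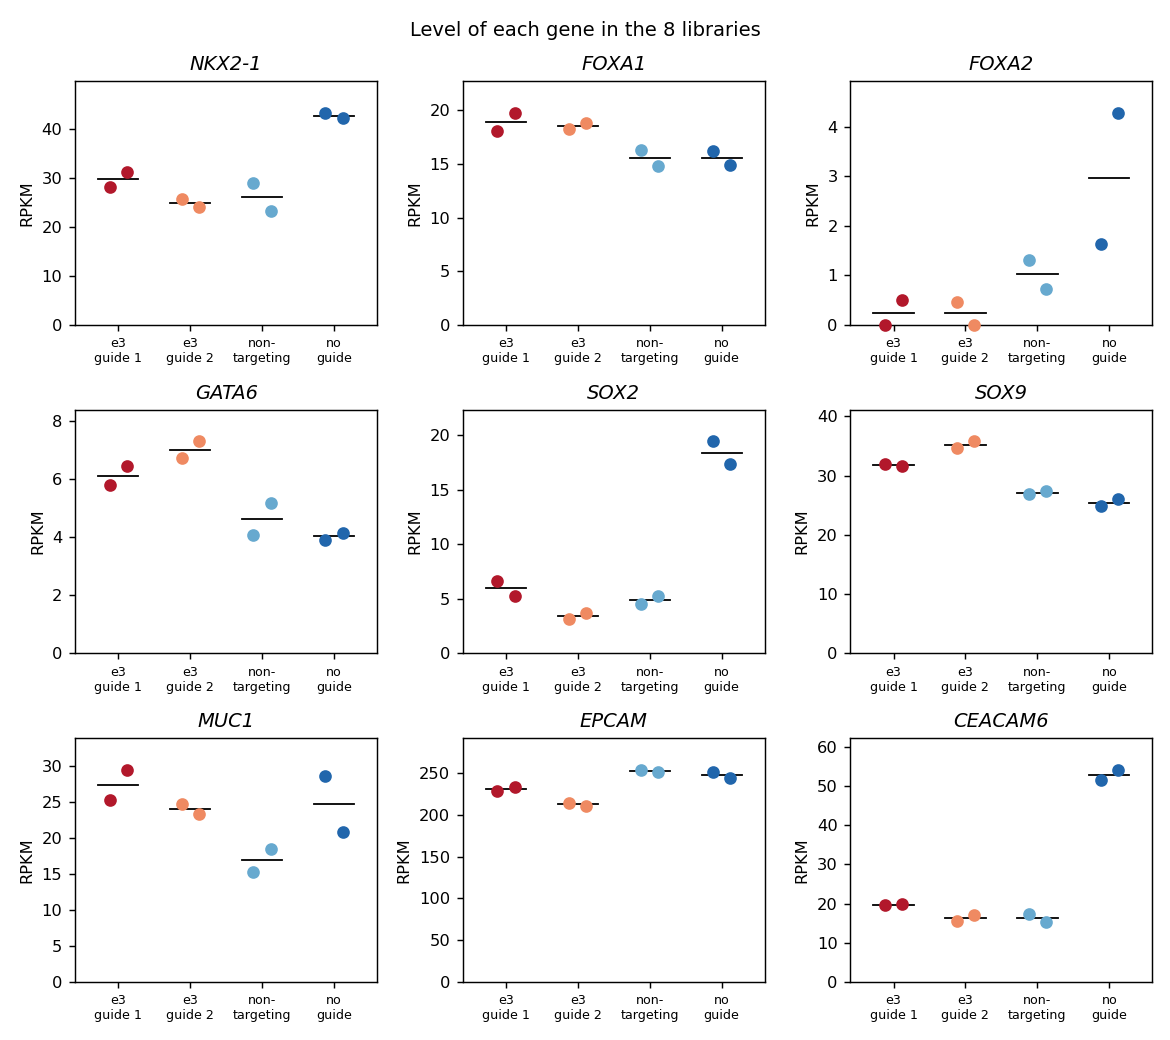
RPKM of each gene (vertical axes, from 0) in the 2 libraries of each group (points), with the group mean as a line. SOX2, CEACAM6 and NKX2-1 are high in the 2 no-guide libraries and lower in the other 6, GATA6, SOX9 and FOXA1 are higher in the 4 e3 libraries than in the 4 controls, and EPCAM spans only 211.0 to 254.1 RPKM.

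The cells carried an epithelial profile, while most listed markers of mature lung cell types were low and a few were abundant. All 7 epithelial markers listed were tested, with KRT19, a keratin of simple epithelia, at mean levels of 1245 RPKM with e3 guide 1, 1235 RPKM with e3 guide 2, 1066 RPKM in the non-targeting libraries and 1335 RPKM in the no-guide libraries. Of 13 genes listed for alveolar type II cells, the surfactant-producing cells of the alveolus, 2 reached a mean of 1 RPKM, and the surfactant genes SFTPA1, SFTPA2, SFTPC and SFTPD were listed at 0 in every library. SFTPB was listed at 0 in all libraries but 1, where it had 0.117 RPKM, so the surfactant genes were at or near 0 in cells whose NKX2-1 never fell under 23.2 RPKM. The 2 that were tested were SFTA3, a gene next to NKX2-1, and LPCAT1, a phospholipid acyltransferase gene, which stood at 111.2 to 163.1 RPKM, above every member but EPCAM. Of 7 genes of alveolar type I cells 3 were tested, among them CAV1, the gene of caveolin-1, at 41.7 to 72.5 RPKM, and of 5 genes of ciliated cells present in the data 3 were tested.

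Markers of other lineages were also low. None of 8 genes of airway secretory cells, 4 of airway basal cells, 6 of neuroendocrine cells and 21 of gastrointestinal and hepatic endoderm reached a mean of 1 RPKM. HNF4A and CDX2, factors of liver and gut identity, and SCGB1A1, the club cell secretoglobin, were listed at 0 throughout. HNF4G was the highest of the endodermal list at 0.525 to 1.29 RPKM. Among cells that a culture should lack, CD79A of the immune list was an exception at 13.0 to 26.1 RPKM, while PTPRC, the pan-leukocyte gene, did not exceed 0.0469 RPKM. COL1A1 of the fibroblast list stood at 3.18 to 6.68 RPKM, beside DCN and COL3A1 at 0. The summed fibroblast list was 6.36 to 7.29 RPKM in the e3 libraries, against 5.16 to 5.76 RPKM in the non-targeting libraries and 3.43 to 4.55 RPKM in the no-guide libraries, and its part in any difference below was not tested.

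**Figure D2:**
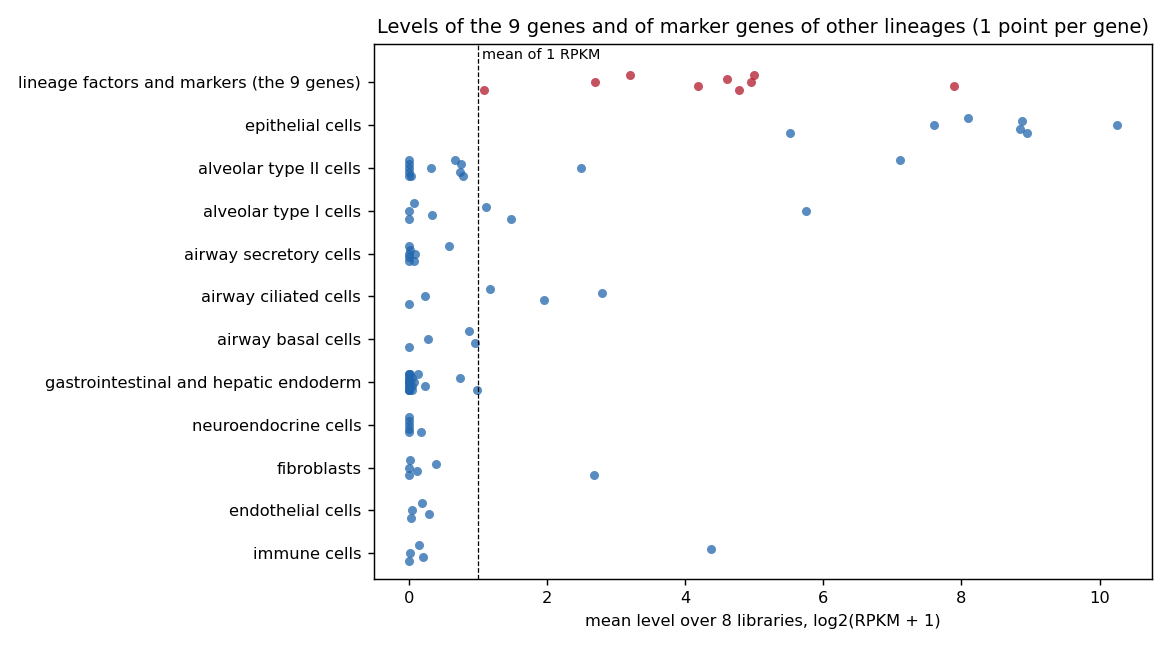
Mean level over the 8 libraries, as log2(RPKM + 1) on the horizontal axis, of each of the 9 genes (top row) and of the marker genes of other lineages (1 point per gene), with a dashed line at 1 RPKM. The 9 genes and the 7 epithelial markers lie right of the line, and all 21 genes of gastrointestinal and hepatic endoderm lie left of it.

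Between the e3 guides and the controls, 2 of the 9 members were called, GATA6 and SOX9, both higher. Calls required an adjusted p below 0.05 (limma on log2(RPKM + 1), Benjamini-Hochberg adjustment over 13979 genes), and 5.2% of all genes tested were called in this comparison, 2.63% as higher. In 5 of the 9 members, FOXA2 among them, the e3 libraries lay wholly on one side of the controls, which held for 15.1% of genes tested. With quantile normalization it was 4, without EPCAM. FOXA2 reached the level for testing only through the controls, so its place in these counts is no support. The median log2 change was -0.17 over the members, beside -0.02 over all genes tested.

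All 4 e3 libraries had more GATA6 than any control. It had 5.78 and 6.43 RPKM with e3 guide 1 and 6.73 and 7.30 RPKM with e3 guide 2, against 4.09 and 5.18 RPKM in the non-targeting libraries and 3.90 and 4.15 RPKM in the no-guide libraries. The group order ran from e3 guide 2 to e3 guide 1, non-targeting guide and no guide, and the last pair overlapped. The mean was 6.56 ± 0.63 RPKM with the e3 guides and 4.33 ± 0.58 RPKM in the controls (SD, n = 4 each), a log2 change of 0.51 ± 0.11 (SE; limma adjusted p = 0.0375). The change was 0.43 ± 0.14 against the non-targeting guide alone, which did not pass (adjusted p = 0.111), and 0.59 ± 0.13 against no guide alone (adjusted p = 0.0168). Between 66 and 146 reads lay behind each value. The call against the controls was lost when any 1 library other than the second non-targeting one was left out. The highest limma adjusted p was then 0.111, without either e3 guide 2 library. That call was also lost with the libraries of a group treated as correlated (adjusted p = 0.11). Against no guide alone the call was lost without either no-guide library, at log2 changes of 0.55 and 0.62.

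SOX9 was also higher in all 4 e3 libraries, and its values were closely grouped. It stood at 32.0 and 31.6 RPKM with e3 guide 1 and at 34.7 and 35.8 RPKM with e3 guide 2, against 26.8 and 27.4 RPKM in the non-targeting libraries and 24.9 and 26.0 RPKM in the no-guide libraries. No group overlapped its neighbour in the order from e3 guide 2 to e3 guide 1, non-targeting guide and no guide. The mean was 33.5 ± 2.06 RPKM with the e3 guides and 26.3 ± 1.08 RPKM in the controls (SD, n = 4 each), a ratio of 1.28 and a log2 change of 0.34 ± 0.07 (SE; limma adjusted p = 0.0259). Against the non-targeting guide alone it was 0.29 ± 0.08 (adjusted p = 0.0608), and against no guide alone 0.38 ± 0.08 (adjusted p = 0.0139). The call against the controls was lost without either e3 guide 2 library (limma adjusted p = 0.0878 and 0.0861). It was also lost without either no-guide library (0.059 and 0.0581) and with correlated libraries (0.067). Against no guide alone the call was lost without either no-guide library, at log2 changes of 0.35 and 0.41.

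FOXA1, FOXA2 and EPCAM did not pass in the fit across all genes, though their e3 libraries and controls did not overlap. FOXA1 had 18.0 and 19.8 RPKM with e3 guide 1 and 18.3 and 18.9 RPKM with e3 guide 2, against 16.4 and 14.9 RPKM in the non-targeting libraries and 16.2 and 14.9 RPKM in the no-guide libraries. Its guides overlapped each other, as did its controls, and the log2 change was 0.25 ± 0.07 (SE; limma adjusted p = 0.0735). It was 0.25 ± 0.08 against the non-targeting guide and 0.25 ± 0.08 against no guide (adjusted p = 0.119 and 0.0736), so that FOXA1 was the member whose difference varied least between the controls.

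EPCAM, the homophilic adhesion protein of epithelia, had 229.0 and 233.6 RPKM with e3 guide 1 and 214.8 and 211.0 RPKM with e3 guide 2, against 254.1 and 250.8 RPKM in the non-targeting libraries and 251.9 and 243.6 RPKM in the no-guide libraries. The e3 libraries were all lower, at a ratio of 0.888 and a log2 change of -0.17 ± 0.05 (SE; limma adjusted p = 0.0866), with 2064 reads or more behind each value. Against the non-targeting guide alone the log2 change was -0.19 ± 0.05 (limma adjusted p = 0.0877). Quantile normalization moved the change against the controls to -0.04 and that against the non-targeting guide to 0.0019. The size of the EPCAM difference thus depended on the scaling, and against the non-targeting guide so did its sign.

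FOXA2 was listed at 0 and 0.496 RPKM with e3 guide 1 and at 0.467 and 0 RPKM with e3 guide 2, against 1.32 and 0.727 RPKM in the non-targeting libraries and 1.64 and 4.28 RPKM in the no-guide libraries. These values rest on 0, 5, 7 and 0 reads in the e3 libraries, against 16 and 9 reads with the non-targeting guide and 20 and 47 without a guide. A count of 0 allows up to 3 reads, which is 0.264 and 0.269 RPKM for this gene in the e3 libraries listed at 0, counting error only. Its log2 change was -1.17 ± 0.34 (SE; limma adjusted p = 0.0777), and -1.62 ± 0.35 against no guide alone (adjusted p = 0.0177). Against the non-targeting guide alone it was -0.72 ± 0.30 and did not pass (limma adjusted p = 0.218). FOXA2 reached the level for testing only through the controls, so these tests are no support for a difference. The call against no guide was lost with a pseudocount of 0.1 (adjusted p = 0.0779), with no filter (adjusted p = 0.0692) and without the second no-guide library (adjusted p = 0.168).

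An exact permutation test, two-sided, used all 70 ways to split the 8 libraries. FOXA1, GATA6, SOX9 and EPCAM each had exact permutation p = 0.0286, the smallest the design allows and not adjusted for the number of genes. That p follows whenever the groups do not overlap, which held for 15.1% of genes tested, so it is no separate evidence. FOXA2 had the same exact permutation p, but reached the level for testing only through the controls. Under quantile normalization the exact permutation p of EPCAM was 0.286, and those of FOXA1, GATA6 and SOX9 stayed at 0.0286. NKX2-1, SOX2, MUC1 and CEACAM6 had exact permutation p = 0.314, 0.171, 0.171 and 0.371 in the same test. For NKX2-1, SOX2 and CEACAM6 the controls themselves were split, which the next comparison describes.

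Without a guide, SOX2, CEACAM6, NKX2-1 and FOXA2 were higher than in all 6 libraries that carried any guide. FOXA2 rested on few reads, 20 and 47 without a guide and at most 16 in each other library. Between the non-targeting guide and no guide 3 members were called, SOX2, CEACAM6 and NKX2-1, all lower. Of all genes tested 12.4% were called in that comparison, 5.81% as lower. The groups did not overlap for 6 of the 9 members, and for 56.7% of genes tested. Against no guide alone the e3 guides had 6 members called, 4 lower and 2 higher, FOXA2 among the lower, where 16.7% of all genes tested were called, 8.03% as lower and 8.68% as higher. Here 8 of the 9 members did not overlap, as did 41.0% of genes tested. FOXA2 is in the counts without overlap of both comparisons. It reached the level for testing only through the controls, so neither its call nor its place in these counts is support. Both comparisons share the no-guide libraries, so they are not separate evidence.

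SOX2 had 6.68 and 5.25 RPKM with e3 guide 1, 3.12 and 3.72 RPKM with e3 guide 2 and 4.52 and 5.28 RPKM in the non-targeting libraries, against 19.5 and 17.4 RPKM in the no-guide libraries. Of its group order, no guide stood clear of e3 guide 1, the non-targeting guide overlapped e3 guide 1 and stood clear of e3 guide 2. The log2 change was -1.81 ± 0.24 for the e3 guides against no guide (SE; limma adjusted p = 0.00182) and -1.72 ± 0.15 for non-targeting over no guide (adjusted p = 0.000375). Against the non-targeting guide the e3 guides differed by -0.09 ± 0.25 (adjusted p = 0.879). The libraries with a guide held 40 to 73 reads and those without a guide 229 and 184.

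CEACAM6, a cell surface glycoprotein of the carcinoembryonic antigen family, had 19.5 and 20.0 RPKM with e3 guide 1, 15.5 and 17.0 RPKM with e3 guide 2 and 17.2 and 15.3 RPKM in the non-targeting libraries, against 51.6 and 54.2 RPKM in the no-guide libraries. The libraries with a guide lay within 15.3 to 20.0 RPKM, at 0.34 of the no-guide mean for the e3 guides and 0.307 for the non-targeting guide. The log2 change was -1.51 ± 0.11 for the e3 guides against no guide (SE; limma adjusted p = 0.00011) and -1.65 ± 0.09 for non-targeting over no guide (adjusted p = 2.84e-05). The e3 guides differed from the non-targeting guide by 0.14 ± 0.12 (adjusted p = 0.565).

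NKX2-1 had 28.2 and 31.1 RPKM with e3 guide 1, 25.7 and 24.0 RPKM with e3 guide 2 and 28.998 and 23.2 RPKM in the non-targeting libraries, against 43.2 and 42.1 RPKM in the no-guide libraries. The 6 libraries with a guide overlapped between groups, except that e3 guide 1 stood clear of e3 guide 2, and all of them were lower than both no-guide libraries. The log2 change was -0.63 ± 0.10 for the e3 guides against no guide (SE; limma adjusted p = 0.00528) and -0.70 ± 0.11 for non-targeting over no guide (adjusted p = 0.00566). Against the non-targeting guide the e3 guides differed by 0.06 ± 0.12 (adjusted p = 0.837). The call for the e3 guides against no guide was lost without the first no-guide library (adjusted p = 0.0535). The first principal component separates the same no-guide libraries, and its part in these differences was not tested.

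The promoters of SOX2, CEACAM6 and NKX2-1 are shown because these genes were lower in all 6 libraries with a guide than in both without. FOXA2 was lower there too but had no window. RefSeq gave a window, from 250 bases before to 50 bases after the start site, for 6 of the 9 members, all but FOXA2, SOX9 and EPCAM, and the coordinates are those of GRCh38.p14, not of the hg19 build named for the files. Capitals mark matches, on either strand, to 6 motifs. The E-box bound by MYC was searched as CACGTG, and the core of forkhead sites as TGTTTAC. For NKX2 factors the core was taken as CAAGTG, while for SOX factors it was AACAAAG. The GATA factor core was searched as AGATAA and the TATA box of many promoters as TATAAA. The NKX2-1 window is the second of the 2 listed, since the first held no match. The windows are chr3:181711675-181711974 on the plus strand for SOX2, chr19:41755280-41755579 on the plus strand for CEACAM6 and chr14:36519507-36519806 on the minus strand for NKX2-1, each written 5′ to 3′ along its strand.
SOX2: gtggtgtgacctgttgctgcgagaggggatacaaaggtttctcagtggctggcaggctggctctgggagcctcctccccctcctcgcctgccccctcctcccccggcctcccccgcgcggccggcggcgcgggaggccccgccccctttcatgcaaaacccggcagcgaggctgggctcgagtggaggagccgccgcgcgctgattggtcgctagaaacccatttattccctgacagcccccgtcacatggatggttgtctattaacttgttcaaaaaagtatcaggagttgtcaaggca
CEACAM6: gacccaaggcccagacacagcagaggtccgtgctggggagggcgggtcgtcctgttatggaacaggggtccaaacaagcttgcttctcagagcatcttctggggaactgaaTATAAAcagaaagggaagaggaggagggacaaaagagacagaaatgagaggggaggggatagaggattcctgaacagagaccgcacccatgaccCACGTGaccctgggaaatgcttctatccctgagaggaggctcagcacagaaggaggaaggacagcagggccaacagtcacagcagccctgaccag
NKX2-1: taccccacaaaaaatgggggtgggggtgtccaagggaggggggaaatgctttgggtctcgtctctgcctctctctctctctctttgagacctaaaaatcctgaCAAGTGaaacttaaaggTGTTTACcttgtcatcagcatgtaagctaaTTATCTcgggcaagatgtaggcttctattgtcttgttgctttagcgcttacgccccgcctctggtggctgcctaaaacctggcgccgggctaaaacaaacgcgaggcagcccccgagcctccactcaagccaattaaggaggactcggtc

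The 3 windows shared no motif, and no matches overlapped. SOX2 held none of the 6, CEACAM6 held 1 E-box and 1 TATA match, and NKX2-1 held 1 forkhead, 1 NKX2 and 1 GATA match. Of 35116 windows of all genes, 7.26% hold the E-box, 3.42% the forkhead core, 11.5% the NKX2 core, 5.2% the SOX core, 10.3% the GATA core and 11.5% the TATA box. The windows held 20 CpG dinucleotides for SOX2, 5 for CEACAM6 and 11 for NKX2-1, whose first window held 21, beside a median of 14 over all windows. The NKX2-1 window was chosen because it held matches, so the shares over all windows are no measure for those matches. A match is a description of the letters in the window and no evidence of binding.

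Of 5 tested neighbours and antisense RNAs of the members, CEACAM5 and SFTA3 were lower with the e3 guides than without a guide, and the other 3 did not pass. CEACAM5, the carcinoembryonic antigen gene and a close paralog of CEACAM6, had 0.39 and 0.219 RPKM with e3 guide 1, 0.197 and 0.463 RPKM with e3 guide 2 and 0.243 and 0.179 RPKM in the non-targeting libraries, against 3.87 and 3.56 RPKM in the no-guide libraries. CEACAM5 reached the level for testing only through the no-guide libraries, so its values are given as a description, and reads of such paralogs may be split or shared in counting. SFTA3, next to NKX2-1, had a log2 change of -1.22 ± 0.15 for the e3 guides against no guide (SE; limma adjusted p = 0.00121). It was also lower in the non-targeting than in the no-guide libraries (-0.92 ± 0.20, adjusted p = 0.0212). Between the e3 guides and the non-targeting guide SFTA3 did not pass (-0.30 ± 0.18, adjusted p = 0.394). NKX2-1-AS1, whose exons overlap those of NKX2-1 on the other strand, differed by 0.02 between the e3 guides and no guide (adjusted p = 0.968). The strand setting is not given in the sources used here, so reads of such overlapping pairs cannot be told apart. SOX2-OT, within which SOX2 lies, did not exceed 0.136 RPKM in any library.

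Some other genes had similar profiles over the 8 libraries, measured as the root mean square distance between centred log2(RPKM + 1) values. The nearest to CEACAM6 were SEMA3E, a semaphorin gene (distance 0.0907), and PPL, which encodes the desmosomal protein periplakin (0.115), and both were also among the 3 nearest to SOX2 (0.224 and 0.249). SEMA3E had 2.06 and 2.24 RPKM with e3 guide 1, 1.74 and 1.86 RPKM with e3 guide 2 and 1.80 and 1.74 RPKM in the non-targeting libraries, against 8.61 and 8.45 RPKM in the no-guide libraries. The nearest to NKX2-1 were SHMT1, ERRFI1 and CITED2 (0.0797, 0.0805 and 0.0842). The nearest to SOX9 were DAG1, MAN1B1 and FBF1 (0.0451, 0.0458 and 0.0466), and TMEM8A and ST5 were among the 3 nearest to GATA6 (0.0608 and 0.0739). The nearest to FOXA2 and to MUC1, not named here, lay at 0.313 and 0.0988. All these genes were chosen for their likeness, so their levels are a description.

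**Figure D3:**
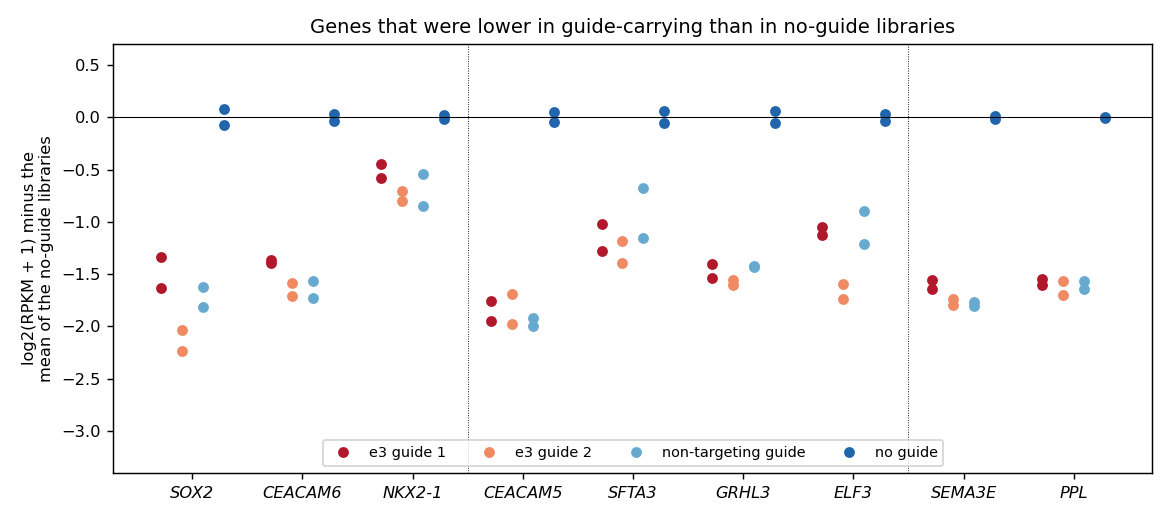
Level in each library as log2(RPKM + 1) minus the mean of the 2 no-guide libraries (vertical axis), for 3 members (left), 4 listed genes (middle) and the 2 genes nearest to CEACAM6 in profile (right), with colours for the groups. All 6 libraries with a guide lie below both no-guide libraries for each gene shown, and ELF3 and GRHL3 were added after their values were seen.

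MUC1, the transmembrane mucin, followed neither pattern. It had 25.2 and 29.4 RPKM with e3 guide 1 and 24.7 and 23.3 RPKM with e3 guide 2, against 15.2 and 18.5 RPKM in the non-targeting libraries and 28.6 and 20.7 RPKM in the no-guide libraries. The non-targeting libraries were the lowest, and the no-guide libraries spanned the e3 values from end to end but for the highest. Between the e3 guides and the non-targeting guide MUC1 was the 1 member called, higher by 0.58 ± 0.11 (SE; limma adjusted p = 0.0263), where 6.84% of all genes tested were called, 3.3% as higher. For 6 of the 9 members these groups did not overlap, beside 32.3% of genes tested. FOXA2 was among them, and reached the level for testing only through the controls. The summed level of the 7 epithelial markers was 3157 to 3247 RPKM in the e3 libraries, against 2642 to 2799 RPKM in the non-targeting libraries and 3427 to 3559 RPKM in the no-guide libraries, and its part in the MUC1 difference was not tested. Against no guide the log2 change was 0.07 ± 0.14 (adjusted p = 0.791), and the non-targeting guide differed from no guide by -0.51 ± 0.16 (adjusted p = 0.0797). The call against the non-targeting guide was lost without the first or the second non-targeting library (adjusted p = 0.193 and 0.09) and without the first e3 guide 2 library (0.0596).

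**Figure D4:**
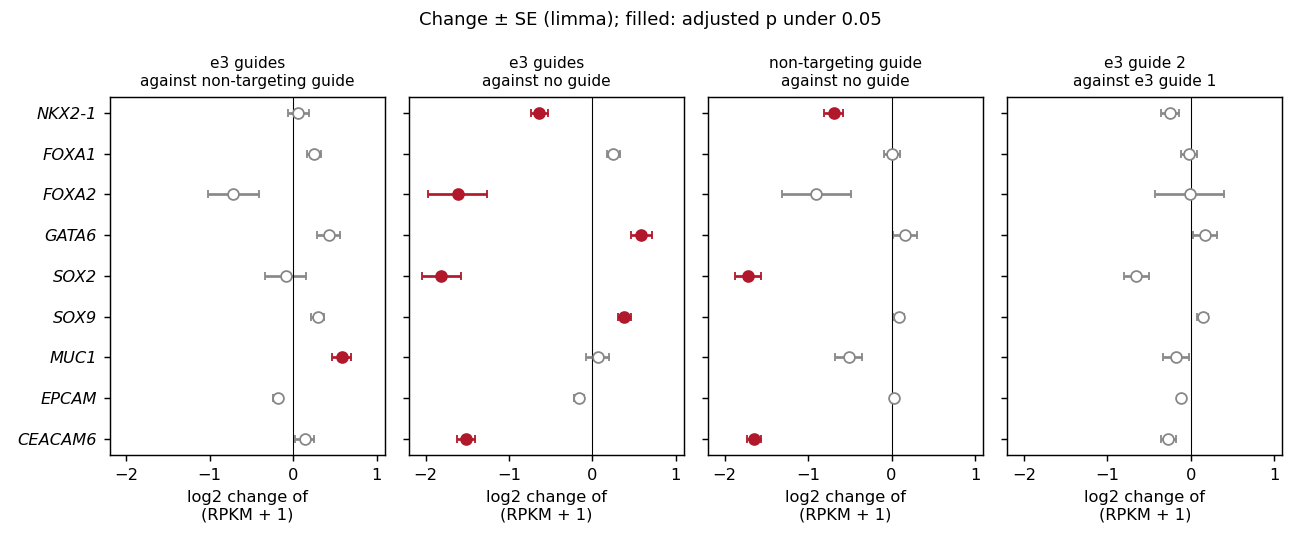
Log2 change of (RPKM + 1) with its standard error (horizontal axes) for the 9 genes in the comparisons of the e3 guides with each control, of non-targeting with no guide and of e3 guide 2 with e3 guide 1, where filled points have an adjusted p under 0.05 in limma. CEACAM6 and SOX2 lie near 0 for the e3 guides over non-targeting, at 0.14 and -0.09, and below -1.5 in both comparisons with no guide.

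Between the guides to e3 no member was called (limma), and 0.0286% of genes tested were. For 3 members the unadjusted p was under 0.05, a threshold for which no share over all genes was computed. SOX2 came nearest, at 3.12 and 3.72 RPKM with e3 guide 2 against 6.68 and 5.25 RPKM with e3 guide 1, a log2 difference of -0.65 ± 0.15 (SE; unadjusted p = 0.00292, limma adjusted p = 0.216). EPCAM and CEACAM6 also had an unadjusted p under 0.05, with differences of -0.12 ± 0.04 and -0.27 ± 0.09 (limma adjusted p = 0.338 and 0.365). In 7 of the 9 members the libraries of the guides did not overlap, which held for 41.4% of genes tested.

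Among other endoderm and epithelial transcription factors, 15 of 29 listed were tested. Between the e3 guides and the controls 1 rose, 0 fell and 14 did not pass, with a median log2 change of -0.20. EHF, an epithelial ETS factor, rose to 39.6 ± 1.48 RPKM with the e3 guides, against 30.9 ± 3.39 RPKM in the controls (SD, n = 4 each; log2 change 0.35 ± 0.08, limma adjusted p = 0.0447). Against the non-targeting guide alone all 15 did not pass, EHF among them (0.27 ± 0.07, adjusted p = 0.0665), and 2 had an unadjusted p under 0.05. For counts by unadjusted p, here and in the lists below, no share over all genes was computed. Against no guide alone 2 rose and 5 fell, among them ELF3, another epithelial ETS factor (-1.38), PAX9 (-0.91), a pharyngeal endoderm factor, and ID2 (-0.88), which marks the distal lung tip. Between the non-targeting guide and no guide 4 fell and none rose, including ELF3 (-1.05), PAX9 (-0.99) and ID2 (-0.68). GRHL3, a grainyhead factor below the level for testing and named after its values were seen, had group means of 0.202 RPKM with e3 guide 1, 0.115 RPKM with e3 guide 2 and 0.239 RPKM in the non-targeting libraries, against 2.33 RPKM in the no-guide libraries.

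Other SOX genes varied in their own ways. Of 17 listed, 6 were tested, and SOX12 was the 1 called for e3 guides over controls, lower by 0.42 on the log2 scale (limma adjusted p = 0.0476), with 10.8 and 10.6 RPKM with e3 guide 1 and 9.29 and 9.11 RPKM with e3 guide 2, against 14.8 and 15.2 RPKM in the non-targeting libraries and 12.3 and 12.4 RPKM in the no-guide libraries. SOX4, an embryonic and carcinoma-expressed factor, was higher with the e3 guides than with the non-targeting guide (log2 change 0.69 ± 0.08, limma adjusted p = 0.00727) and lower in the non-targeting than in the no-guide libraries (-0.67 ± 0.08, adjusted p = 0.00133). SOX21 was lower than without a guide both with the e3 guides (-0.33 ± 0.06, adjusted p = 0.00884) and with the non-targeting guide (-0.34 ± 0.06, adjusted p = 0.0103). The e3 guides differed from the non-targeting guide by 0.01 ± 0.06 for this gene (adjusted p = 0.945). Between the e3 guides and all controls, SOX13 and SOX7 had log2 changes of -0.28 and -0.84 and did not pass, and SOX7 was listed at 0 in 2 e3 libraries.

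Of 15 other mucin genes 3 were tested, and none passed between the e3 guides and the controls or between the e3 guides and the non-targeting guide (limma), where 1 and 0 had an unadjusted p under 0.05. MUC16, the CA125 antigen, had 1.94 and 2.46 RPKM with e3 guide 1, 3.73 and 3.79 RPKM with e3 guide 2 and 3.31 and 3.84 RPKM in the non-targeting libraries, against 9.38 and 9.61 RPKM in the no-guide libraries. MUC16 was called lower with the e3 guides than without a guide (log2 change -1.43), and lower in the non-targeting than in the no-guide libraries (-1.20). MUC20, another transmembrane mucin, had 0.638 to 1.41 RPKM in the e3 libraries and 0.658 to 0.925 RPKM in the non-targeting libraries, against 3.24 and 3.99 RPKM in the no-guide libraries, through which alone it reached the level for testing. MUC4 did not pass in either (-0.29 and -0.28). Of 11 other CEACAM genes 3 were tested and none passed between the e3 guides and the controls (limma, 1 with an unadjusted p under 0.05), with CEACAM1 at -0.20 and CEACAM19 at 0.37.

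Of 14 listed relatives, partners and proteases of EPCAM, 13 were tested, and 1 rose and 12 did not pass between the e3 guides and the controls. The 1 that rose was CD44, the hyaluronan receptor, to 53.8 RPKM with the e3 guides, against 36.8 RPKM in the non-targeting libraries and 20.8 RPKM in the no-guide libraries (log2 change against the controls 0.93 ± 0.20, limma adjusted p = 0.0316). APH1A, a subunit of the gamma-secretase that cleaves EPCAM, did not pass there (0.23), nor did NCSTN (0.21) or CLDN7 (-0.24). Of the 7 epithelial markers CDH1, which encodes E-cadherin, rose (0.23 ± 0.05, adjusted p = 0.032), and KRT7 and KRT18 did not pass (0.25 and -0.13).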

How the data were processed

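RNA of 8 libraries was measured by RNA-seq of poly(A) RNA, per the labels' protocols. The deposited values were RPKM, as the name of the deposited table states, and, per the submitters' processing notes, Cufflinks and hg19 were used, with no role or version stated. The sources used here give no aligner, counting method, strand setting or annotation release. Groups came from sample titles, and columns were matched by name, with the design text giving the name of the non-targeting guide. Reads behind the values were inferred from the steps between low RPKM values. They came out whole, within 0.03 reads, in 13977 of 13979 genes tested, and depths are sums of these reads. They served to judge precision, not for a count test. The libraries of a group differed by a chi-square per degree of freedom of 1.91 to 2.11 over 12206 genes.

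Tests used limma 3.58.1 in R 4.3.3 on log2(RPKM + 1) for genes averaging 1 RPKM or more, with a variance trend and Benjamini-Hochberg adjustment. Fold changes on this scale understate changes of low genes. The e3 guides were compared with all controls (8 libraries, 2 groups) and with each control alone (6 libraries). The non-targeting guide against no guide and e3 guide 2 against e3 guide 1 used a model with 4 groups. These steps were tested on simulated data. The members and gene lists were chosen with earlier results of these data known. Genes named are the 9 members, MYC and some, not all, of those picked by rule. The rule took up to 4 genes per list by smallest p between the e3 guides and the controls. It also took the 3 nearest profiles to each called member. Others were named for their values in other comparisons or to describe a lineage. The values of 1 listed gene are not reported here. Overlapping genes were read from GENCODE 29, and promoter windows from RefSeq on GRCh38.p14. Alternatives were another pseudocount, other filters, 2 scalings, leaving out each library, a replicate block, correlated libraries and group means.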

Additional observations from a re-analysis of the deposited data

How the results depend on the processing

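Between the e3 guides and the controls 727 genes and 2 members were called, against 406 genes and 1 member with no filter, 387 and 0 with the replicate block, 256 and 0 with correlated libraries and 1 and 0 with group means as samples. Leaving out each library in turn gave 180 to 580 genes and 0 to 2 members. Against the non-targeting guide, 956 genes and 1 member became 379 and 0 with no filter and 597 genes with the replicate block, 2 members with a minimum mean of 5 RPKM, and 6 to 808 genes and 0 to 1 members with a library left out. Against no guide, 2336 genes and 6 members became 945 to 2023 and 3 to 6. For non-targeting over no guide, 1728 genes became 872 to 1559, and NKX2-1, SOX2 and CEACAM6 were called under all 14 alternatives. A lone library was there assumed to vary like the other groups. For e3 guide 2 against e3 guide 1, 4 genes became 9 with no filter, 24 with a minimum mean of 5 RPKM, 13 with quantile normalization, 1 with the replicate block and 0 to 4 with a library left out. The cause of these shifts was not tested.

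Replicate numbers did not pair the libraries, as deviations of same-numbered libraries correlated between -0.0223 and 0.0138. Under the replicate block GATA6 and SOX9 missed the threshold (adjusted p = 0.0519 and 0.0505), and MUC1 kept its call. Quantile normalization reversed EPCAM against the non-targeting guide (0.0019) and for non-targeting over no guide (-0.088), and AGER between the e3 guides and the controls (0.0042, and 0.0041 with median-ratio scaling). With libraries left out, log2 changes near 0 reversed. Between the e3 guides and the controls these were AGER (-0.17 to 0.17), DNAH5 (-0.10 to 0.0041) and CD79A (-0.13 to 0.19). Against the non-targeting guide they were NKX2-1 (-0.094 to 0.22) and SOX2 (-0.25 to 0.049), and against no guide MUC1 (-0.16 to 0.29). FOXA1 ran from -0.063 to 0.067 for non-targeting over no guide and from -0.086 to 0.040 between the e3 guides, where FOXA2 ran from -0.30 to 0.28. Depth limits FOXA2, at 0 to 47 reads per library.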
